A study of Mus musculus with 6 samples.

Results

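The genes described here encode proteins that make ribosomes: RNA polymerase I and its factors, the protein cores of the small nucleolar ribonucleoproteins (snoRNPs), and the nucleolar processing factors of both ribosomal subunits. They were taken from a list of 38 symbols, by name. Of these, 37 had an array row that names 1 gene, among 19938 genes tested. The remaining gene, Ppan, which encodes a large subunit factor, shares its row with another gene and has no value here. Fbl and Wdr12 had more than 1 row, and the brightest on average was used.

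Ribosomes are assembled in the nucleolus. RNA polymerase I copies the ribosomal DNA into a long precursor, snoRNPs guide chemical changes of its nucleotides, and processing factors cut and fold it into the small and the large subunit. Output follows growth, and the transcription factor Myc, with its partner Max, is known to drive many of these genes through the E-box sequence. In blood-forming cells the rate of protein synthesis differs between stem cells, which keep it low, and the progenitors that follow them.

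The cells were LSK CD150- cells of mouse bone marrow, a fraction of early stem and progenitor cells gated on Kit and Sca-1 and against CD150. Controls were 3 Cebpafl/fl mice, whose Cebpa alleles are flanked by loxP sites and intact. Deleted samples came from 3 Cebpafl/fl;Mx1Cre mice, in which an interferon-responsive promoter drives Cre, and both genotypes were injected with pIpC, a double-stranded RNA, and taken at day 18. Each mouse gave 1 Affymetrix Mouse Gene 1.0 ST array, lettered a to c in each genotype (n = 3). The sources used here state no age. Mx1Cre acts in many cell types, and since controls carry no Cre, the transgene and the loss of Cebpa cannot be told apart. The comparison asks which transcripts differ in these cells after deletion of Cebpa, a transcription factor of the myeloid lineages.

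Values are the deposited log2 signals, and a log2 fold change is the deleted mean minus the control mean. Cebpa was lower by 1.71 on this scale (7.80 ± 0.06 against 6.09 ± 0.27, SD, n = 3 each; log2 fold change -1.71, limma adjusted p = 0.000883), although the sources used here do not say whether its probes lie in the floxed part. Array medians lay between 6.16 and 6.23, and the deleted arrays were the dimmer ones at the bright end, with maxima of 14.20 to 14.31 against 14.54 to 14.57. Of the genes of the gate, Kit was bright and was itself called lower after deletion (9.23 to 9.59 against 10.02 to 10.31, limma adjusted p = 0.027). Cd34, which is not part of the gate given above, was also bright. It read 11.19 to 11.34 in deleted samples and 11.46 to 11.62 in controls. Slamf1, which encodes CD150, read 3.94 to 4.86 in deleted samples and 3.48 to 3.93 in controls. Cd34 and Slamf1 thus did not overlap between genotypes, but neither was called (limma adjusted p = 0.232 and 0.314). Ly6a, the Sca-1 gene, was not analysed here. Of further surface genes checked, Itgam read 6.88 to 7.07 in deleted samples and 6.36 to 6.74 in controls, without overlap. Cd3e, Ly6g and Ptprc overlapped, and none of these genes was called (limma adjusted p = 0.146 for Itgam and 0.412 to 0.79 for the others). Kdm5d and Eif2s3y, both Y-linked, read 8.04 to 8.49 on all 6 arrays, although the labels call the mice female. Of lists of other cell types, 4 of 9 stem cell markers and 4 of 10 neutrophil markers were called lower and none higher. Log2 fold changes were above 0 for 2 of the stem cell and 1 of the neutrophil markers. Cpa3 alone of 8 mast cell and basophil markers was called higher. None of 9 lymphoid or 8 erythroid and megakaryocyte markers was called. The log2 of the summed stem cell markers was 11.32 to 11.53 in controls and 10.44 to 10.65 in deleted samples. The corresponding ranges were 11.86 to 12.16 and 11.51 to 12.10 for neutrophils, 9.23 to 9.32 and 11.47 to 11.78 for mast cells, and 10.94 to 11.37 and 11.62 to 11.96 for lymphoid markers. They were 9.70 to 10.08 and 9.91 to 10.04 for erythroid and megakaryocyte markers. In the mast cell list Cpa3, which encodes a mast cell protease, went from a mean of 7.92 to 11.38, while the median log2 fold change of the 8 genes was 0.03 and 4 were above 0. In the lymphoid list Dntt alone read 10.42 to 10.95 in controls and 11.20 to 11.62 in deleted samples, near the summed level. The median log2 fold change of that list was 0.25, and 7 of its 9 genes were above 0. The part of such cells in the differences below was not tested, and each array read bulk RNA, so fewer cells of a type and less RNA per cell cannot be told apart.

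Most genes of ribosome production differed little between the genotypes. Pes1, a subunit of the PeBoW complex that matures the large subunit RNA, rose 1.64-fold and was the only member called, at a Benjamini-Hochberg adjusted p under 0.05 in limma. The count was thus 1 of 37 higher and 0 lower, against a background of 0.702% of all genes higher and 0.732% lower (1.43% in either direction, or 286 genes). The directions of those 286 genes were even, with 49.0% higher. Other normalizations called other sets of genes. Of the 336 called after quantile normalization 61.6% were higher, and of the 351 called after median centring 65.8%. Of the 296 called after cyclic loess 49.0% were higher, the same share as with the deposited values. The median log2 fold change of the members was 0.07, beside 0.03 over all genes and 0.0064 over the 9969 genes in the brighter part of the arrays, in which all 37 members lay. The lowest value of any member, 6.63, lay above each array's own median.

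At an unadjusted p under 0.05, 8 members were higher and 2 lower, or 27.0% of the members beside 15.9% of all genes (9.1% higher, 6.77% lower). The 8 stayed 8 without control a and became 6 without control b and 5 without control c. They became 5, 9 and 6 without deleted a, b and c. Genotypes were fully apart for 10 members that were higher, 27.0% of the members beside 12.5% of all genes. They were apart for 3 that were lower, 8.11% beside 8.68%, and 21.2% of all genes had no overlap in either direction. Log2 fold changes ran from -0.40 for Polr1b to 0.72 for Pes1, and 13 members lay within 0.1 of 0. With the deposited values, 27 members (73.0%) had a positive sign, beside 56.5% of all genes and 51.0% of the brighter genes. The number of members with a positive sign was 29 after quantile normalization or median centring and 24 after cyclic loess.

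The spread among the deleted mice was as large as the shift, while the controls lay close together. Measured against the control means, the median of the members was 0.21 on the deleted a array, 0.00 on deleted b and 0.09 on deleted c, while the control arrays lay at 0.02, -0.01 and -0.02. Deleted a held the highest value of its genotype for 21 of 37 members, where it did so for 29.6% of all genes, and it lay above the control mean for 32 members. Deleted b did so for 18 members and deleted c for 23. Controls a, b and c themselves lay above it for 23, 17 and 18 members. Without deleted a, 22 members kept a positive log2 fold change and the median was 0.05. Without deleted b, 26 were positive with a median of 0.09, and without deleted c 30 with 0.11. Without control a, b or c, 27, 27 and 24 were positive, with medians of 0.11, 0.08 and 0.08.

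**Figure D1:**
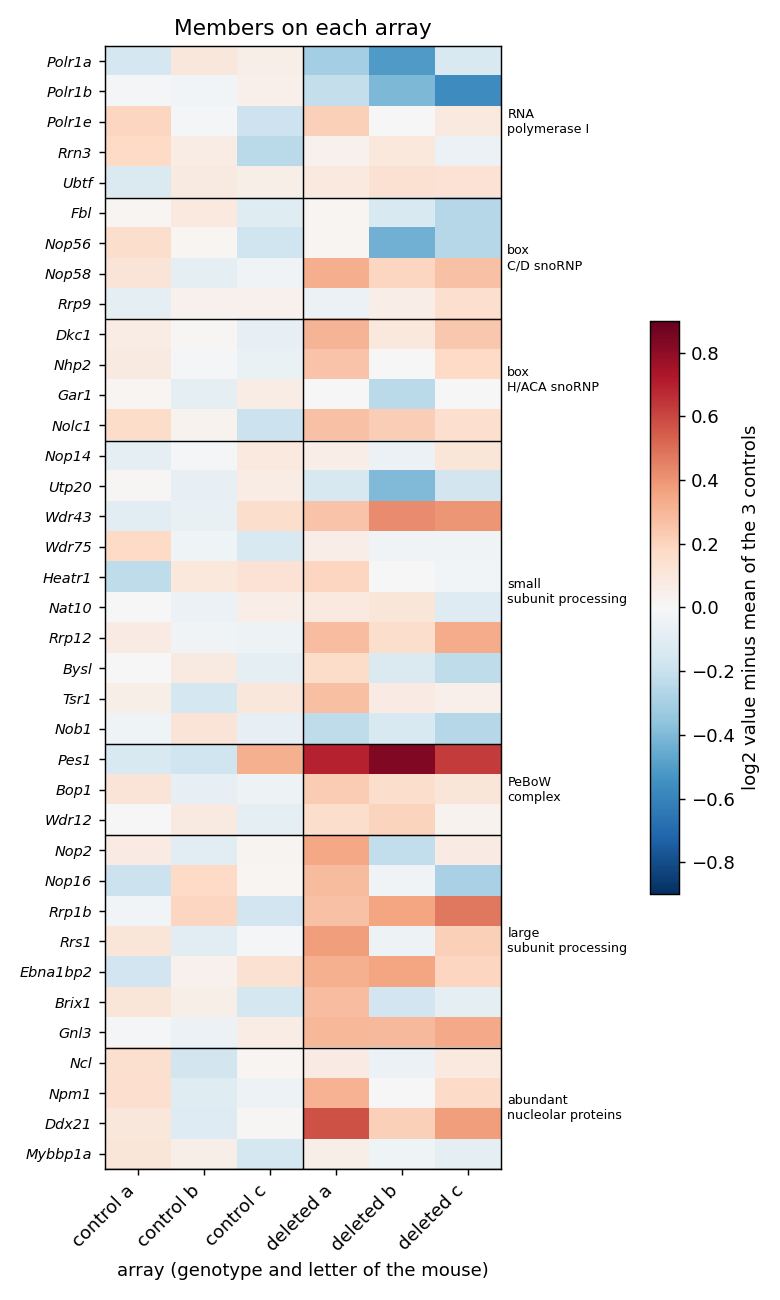
Heat map of the 37 measured genes (rows, grouped by role) on the 6 arrays (columns), coloured by log2 value minus the mean of the 3 controls. The Pes1 row is the darkest on the deleted arrays, Polr1a and Polr1b are lower there, and the deleted a column is redder than deleted b.

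Pes1 encodes Pescadillo, a nucleolar protein that joins Bop1 and Wdr12 in the PeBoW complex, which is needed to cut the precursor between the large subunit RNAs. Its log2 values were 7.79, 7.75 and 8.25 in controls a, b and c and 8.62, 8.76 and 8.56 in the deleted samples. All 3 deleted values lay above all controls, and control c stood well above the other controls. The means were 7.93 ± 0.28 and 8.65 ± 0.10 (SD, n = 3 each). The log2 fold change was 0.72 ± 0.14 (SE; 95% interval 0.39 to 1.04), with a limma adjusted p of 0.0481, close to the threshold.

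That call rested on most of the arrays. The adjusted p of Pes1 was 0.141 and 0.161 when control a or control b was left out. It was 0.104, 0.154 and 0.0990 when deleted a, b or c was left out. Without control c the log2 fold change was 0.88 and the adjusted p 0.0222. It also missed the threshold after cyclic loess (0.0553), with array weights (0.0556) and when every deposited row was tested (0.178). The size of the difference moved less, between 0.63 and 0.88 over all alternatives.

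**Figure D2:**
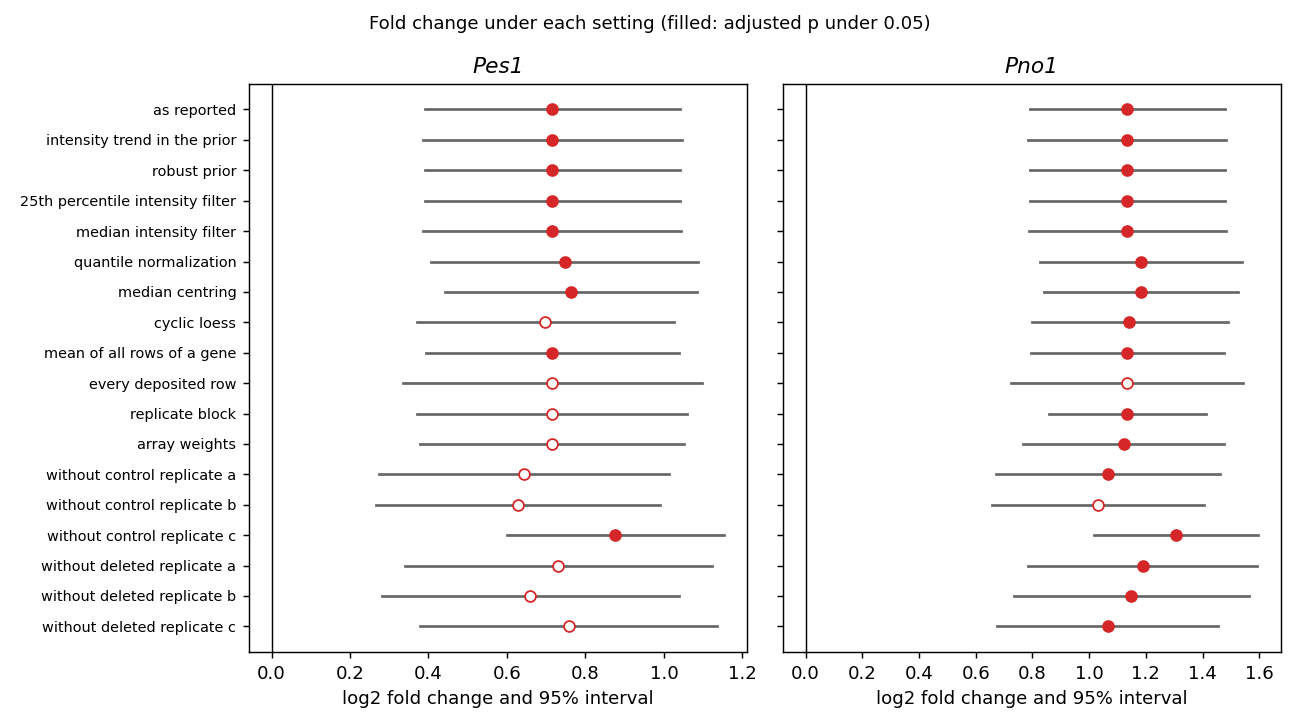
Log2 fold change (points) and 95% interval (lines) of Pes1 and of Pno1, a small subunit factor outside the 38 genes, as reported and under each alternative setting; filled points have an adjusted p under 0.05. Every interval lies above 0, from 0.63 to 0.88 for Pes1 and from 1.03 to 1.31 for Pno1 at the points, while Pes1 loses its call in most settings that leave out an array.

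The other PeBoW subunits were measured too. Bop1, the subunit that bridges Pes1 and Wdr12, read 7.27, 7.08 and 7.11 in controls and 7.38, 7.31 and 7.26 in deleted samples, which overlap. Its log2 fold change was 0.16 ± 0.10 (SE; adjusted p = 0.501, limma). Wdr12 had 0.13 ± 0.10 (SE; adjusted p = 0.606) in the row kept and 0.02 ± 0.08 in a dimmer row. Whether Pes1 differed from its partners was not tested.

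The E-box that Myc and Max bind was searched for in promoter sequences, since Pes1 and other genes of this kind are described as Myc targets. The motif was CACGTG, which reads the same on both strands, in RefSeq windows of 300 bases (250 before and 50 after a start site, build GRCm38.p6). Of 32 members with a window, 7 held it (21.9%), beside 9.52% of 15563 tested genes with a window and 7.15% of all 32851 windows. Each site is printed with flanks as 30 bases, 5′ to 3′ on the strand of the gene, with the E-box in capitals. They show that the motif starts within 60 bases of the start site everywhere but at the far site of Rrn3, and that its flanks differ.
Pes1, chr11:3963965-3963994 (+): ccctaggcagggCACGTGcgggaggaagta
Wdr43, chr17:71616220-71616249 (+): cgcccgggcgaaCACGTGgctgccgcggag
Tsr1, chr11:74898092-74898121 (+): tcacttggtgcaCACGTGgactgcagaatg
Nop2, chr6:125131811-125131840 (+): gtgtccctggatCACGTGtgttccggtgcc
Rrn3 near site, chr16:13780639-13780668 (+): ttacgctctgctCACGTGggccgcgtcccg
Rrn3 far site, chr16:13780472-13780501 (+): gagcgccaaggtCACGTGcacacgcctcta
Mybbp1a, chr11:72441347-72441376 (+): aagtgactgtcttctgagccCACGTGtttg
Utp20, chr10:88826765-88826794 (-): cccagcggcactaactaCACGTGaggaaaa

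In Pes1 the E-box starts at base 3 after the start site, and in Wdr43 at base 18. In Nop2 it starts 60 bases before the start site, and in Rrn3 48 and 215 bases before it. The 7 genes with the motif had log2 fold changes from -0.24 (Utp20) to 0.72 (Pes1) with a median of 0.07, and the 25 without it from -0.40 to 0.38 with a median of 0.05. The members with the motif thus spanned both directions. Myc itself, named after its value was seen, read 11.39, 11.40 and 11.54 in controls and 11.75, 11.61 and 11.50 in deleted samples. These overlap, and the log2 fold change was 0.18 ± 0.11 (SE; adjusted p = 0.485, limma). A match is a description of the letters only.

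RNA polymerase I showed lower values for its catalytic core, without a call. Polr1b, the second-largest subunit, had 7.18, 7.17 and 7.24 in controls and 6.98, 6.79 and 6.63 in deleted samples. All deleted values lay below all controls, and the controls were tight. The log2 fold change was -0.40 ± 0.11 (SE; 95% interval -0.65 to -0.14), or 1.32-fold lower, at a limma adjusted p of 0.133. Polr1a, the largest subunit, read 7.48, 7.74 and 7.69 in controls and 7.33, 7.13 and 7.50 in deleted samples. Deleted c lay just above control a, so the genotypes overlap, and the log2 fold change was -0.32 ± 0.13 (SE; adjusted p = 0.263).

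The polymerase subunit Polr1e (0.10), the initiation factor Rrn3 (0.03) and the ribosomal DNA binding factor Ubtf (0.12) had small log2 fold changes, with limma adjusted p-values of 0.631 to 0.940. For Ubtf the values were 9.22, 9.43 and 9.40 against 9.44, 9.49 and 9.48. These do not overlap, but by a margin far smaller than the control range. None of the 5 polymerase I genes was called.

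The polymerase I genes outside the 38 also gave no call. The 16 such genes listed include other subunits and the TAF1 promoter factors. Polr2e, Polr2f, Polr2h, Polr2k and Polr2l among them encode subunits shared with other RNA polymerases. Of the 16, 13 were measured and none passed, with a median of 0.06 and 10 above 0. The smallest p was that of Taf1d, a subunit of the promoter selectivity factor, at 13.14, 12.95 and 12.91 in controls and 12.45, 12.64 and 12.71 in deleted samples. Those values do not overlap, and its log2 fold change was -0.40 ± 0.12 (SE; adjusted p = 0.133). Taf1b, a subunit of the same factor named after its value was seen, lay in the other direction, at a log2 fold change of 0.47 and an adjusted p of 0.136.

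**Figure D3:**
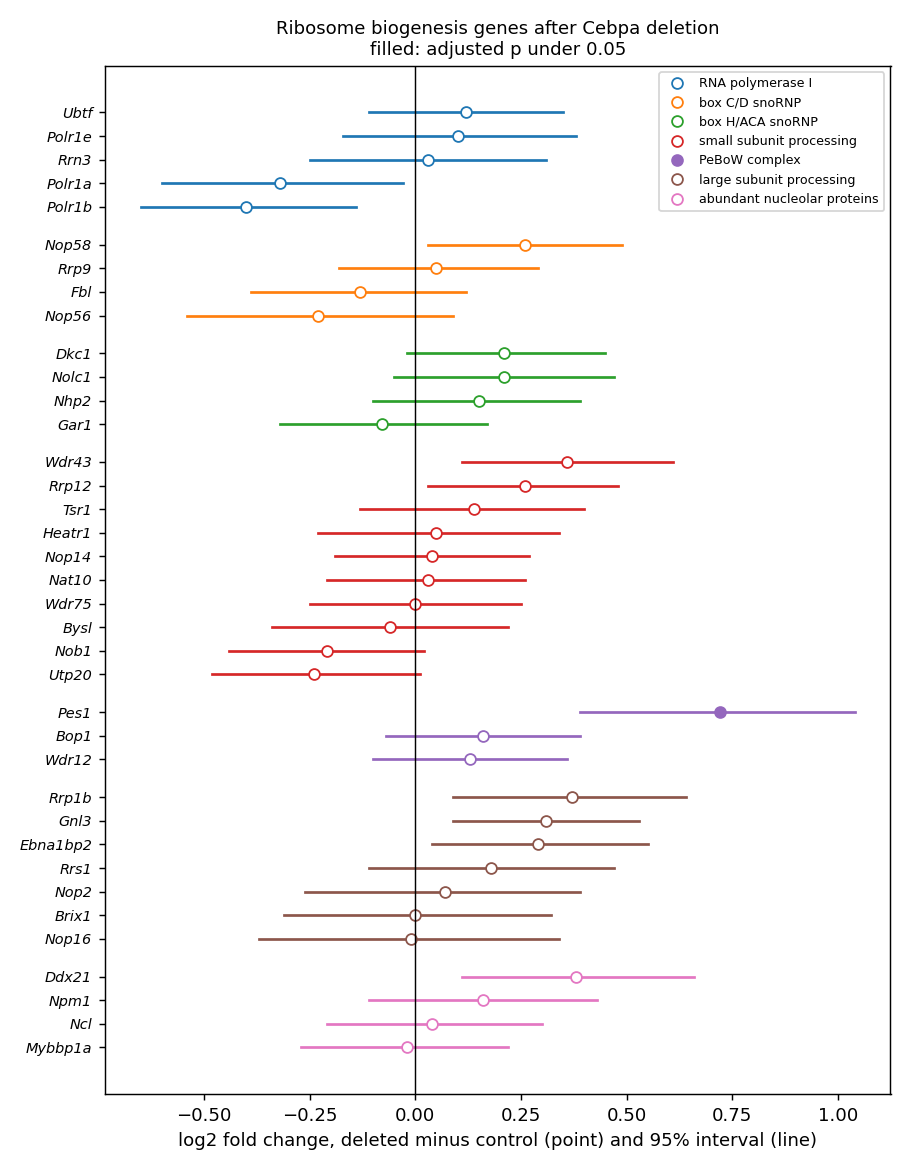
Log2 fold change (deleted minus control; points) with its 95% interval (lines) for the 37 measured genes, coloured by role; the filled point has an adjusted p under 0.05. Only the interval of Pes1 (0.39 to 1.04) reaches beyond 0.7, and those of Polr1a and Polr1b lie below 0.

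The box C/D snoRNPs, which place methyl groups on ribosomal RNA, moved in no common direction. Nop58, a scaffold protein of the particle, read 10.48, 10.28 and 10.33 in controls and 10.69, 10.56 and 10.63 in deleted samples. The groups do not overlap, and the log2 fold change was 0.26 ± 0.10 (SE; adjusted p = 0.255, limma). Nop56, the scaffold that pairs with it, read 10.09, 9.95 and 9.75 against 9.95, 9.50 and 9.67. Here the ranges overlap, and the log2 fold change was -0.23 ± 0.14 (SE; adjusted p = 0.491).

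Fbl, the methyltransferase fibrillarin, read 11.50, 11.57 and 11.37 in controls and 11.50, 11.34 and 11.22 in deleted samples. The values overlap widely (log2 fold change -0.13 ± 0.11, SE; adjusted p = 0.631, limma). A dimmer row of Fbl gave 0.06 ± 0.16, so the rows disagree in sign. Rrp9, a protein of the U3 particle that guides early cuts, had a log2 fold change of 0.05.

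The box H/ACA snoRNPs convert uridine to pseudouridine. Dkc1, the pseudouridine synthase dyskerin, read 9.59, 9.54 and 9.45 in controls and 9.83, 9.62 and 9.77 in deleted samples, without overlap. Its log2 fold change was 0.21 ± 0.10 (SE; adjusted p = 0.364, limma). The core proteins Nhp2 (0.15) and Gar1 (-0.08) and the snoRNP chaperone Nolc1 (0.21) were not called either. Of 11 further snoRNP and assembly factors, none passed, with a median of 0.13, and the smallest p was that of Shq1, a chaperone of dyskerin (0.39 ± 0.17, SE; adjusted p = 0.314).

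Among the 10 small subunit factors, none was called, 7 had positive and 3 negative log2 fold changes, and the median was 0.03. Wdr43, a subunit of the early processome, read 9.87, 9.90 and 10.12 in controls and 10.22, 10.39 and 10.36 in deleted samples. These do not overlap, and the log2 fold change was 0.36 ± 0.11 (SE; adjusted p = 0.154, limma). Rrp12, which takes part in the export of subunits, read 7.01, 6.90 and 6.89 in controls and 7.21, 7.09 and 7.27 in deleted samples. These values do not overlap either (0.26 ± 0.10, SE; adjusted p = 0.258).

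In the other direction stood Utp20 and Nob1. Utp20, a large scaffold of the processome, read 7.42, 7.33 and 7.47 in controls and 7.26, 7.01 and 7.24 in deleted samples. The groups are apart, and the log2 fold change was -0.24 ± 0.11 (SE; adjusted p = 0.336, limma). Nob1, the nuclease that makes the final cut of the small subunit RNA, read 8.50, 8.65 and 8.46 against 8.31, 8.40 and 8.28. These also do not overlap (-0.21 ± 0.10, SE; adjusted p = 0.374). The remaining small subunit factors lay between -0.06 for Bysl and 0.14 for Tsr1, which act late in assembly. Between them were Nop14 (0.04), Wdr75 (0.00) and Heatr1 (0.05) of the processome and Nat10 (0.03), which acetylates the small subunit RNA.

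The large subunit factors outside PeBoW were 7 measured genes, with a median of 0.18 and none called. Gnl3, the nucleolar GTPase nucleostemin, which is known from stem and progenitor cells, read 10.13, 10.10 and 10.22 in controls and 10.45, 10.44 and 10.49 in deleted samples. Both groups were tight and apart. The log2 fold change was 0.31 ± 0.10 (SE; 95% interval 0.09 to 0.53), with a limma adjusted p of 0.157. Rrp1b, a nucleolar protein of the large subunit precursor, read 7.74, 7.96 and 7.59 against 8.03, 8.12 and 8.24. All deleted values were above the controls (0.37 ± 0.12, SE; adjusted p = 0.186).

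Ebna1bp2, which acts early in large subunit assembly, read 9.16, 9.37 and 9.47 in controls and 9.65, 9.69 and 9.53 in deleted samples. The gap between the groups was small beside the control range (0.29 ± 0.11, SE; adjusted p = 0.246, limma). Rrs1 (0.18), needed to bring in the 5S particle, Nop2 (0.07), a methyltransferase of the large subunit RNA, and the assembly factors Brix1 (0.00) and Nop16 (-0.01) showed overlapping genotypes. Deleted a was the highest deleted sample for each of these 4.

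Of the abundant nucleolar proteins, the helicase Ddx21, which works with polymerase I and with snoRNAs, read 8.69, 8.47 and 8.60 in controls and 9.16, 8.80 and 8.96 in deleted samples. The groups do not overlap, and deleted a was the highest of all. Its log2 fold change was 0.38 ± 0.12 (SE; 95% interval 0.11 to 0.66), with a limma adjusted p of 0.167. Npm1, or nucleophosmin, a chaperone of ribosome assembly that is often mutated in myeloid leukaemia, read 11.61, 11.35 and 11.41 against 11.77, 11.46 and 11.63. These overlap (0.16 ± 0.12, SE; adjusted p = 0.574), and 3 further rows that name Npm1 together with other genes were not used. Ncl, or nucleolin (0.04), and Mybbp1a (-0.02), a repressor of polymerase I, had the smallest log2 fold changes of these 4.

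**Figure D4:**
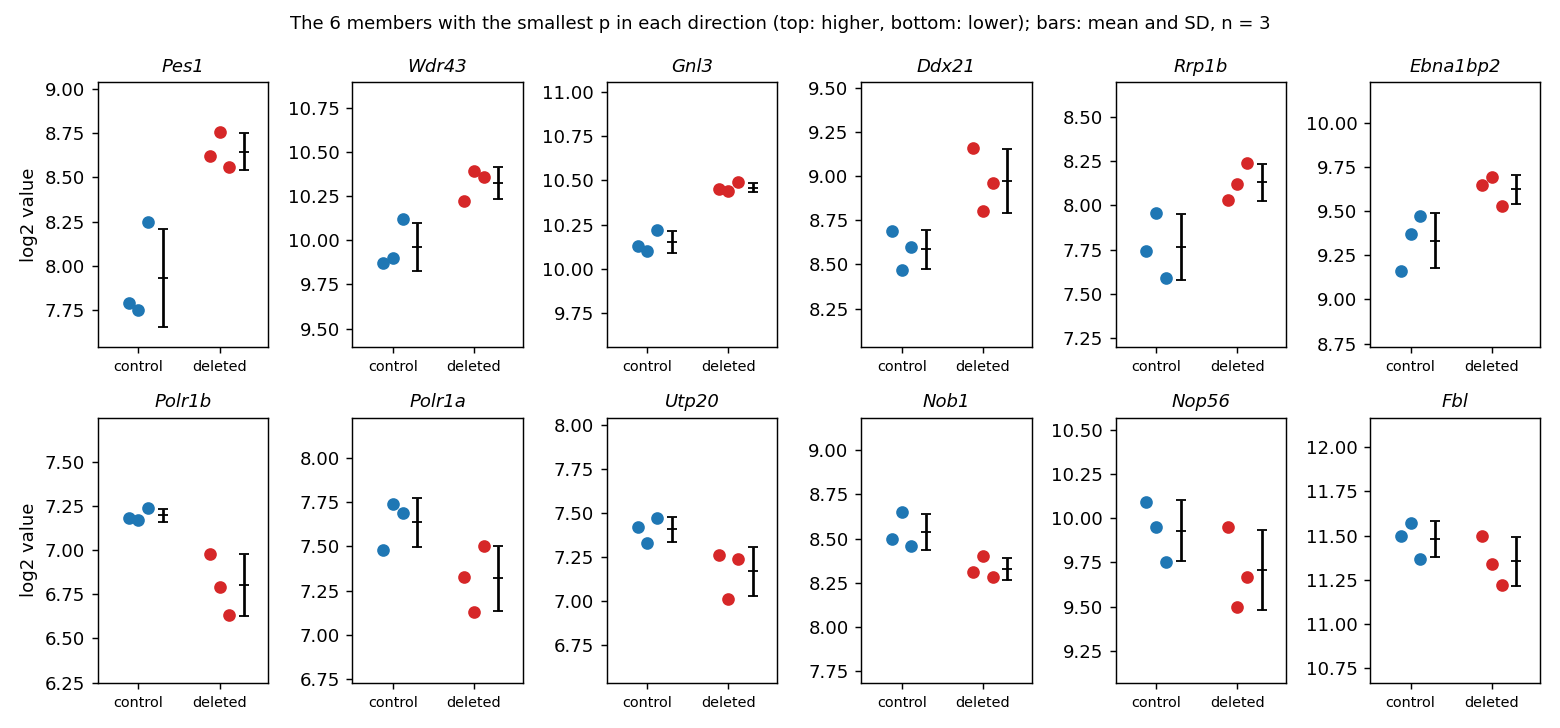
Log2 values on each array (points) with the mean and SD (bars, n = 3) for the 6 genes with the smallest p in each direction; each panel spans 1.5 log2 units. Deleted and control samples are apart for all 6 genes of the upper row and for Polr1b, Utp20 and Nob1 of the lower row.

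For the 36 members that were not called, the 95% intervals give the differences that these values allow. They do not give the size of change that the threshold over all genes could miss. The intervals reached between 0.22 and 0.36 to either side of a member's log2 fold change. For 31 of the 36 the whole interval lay within a 1.5-fold change in either direction (0.58 on the log2 scale). The exceptions were Ddx21, Rrp1b and Wdr43 at the upper end and Polr1a and Polr1b at the lower. A missed threshold does not show equal levels.

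Other genes of ribosome production, from lists that do not overlap the 38, gave 2 calls. Of 39 further small subunit factors measured of 40 listed, Pno1 and Nol7 rose and none fell. The list median was 0.23, with 16 at an unadjusted p under 0.05 higher and none lower. Pno1, which helps to complete the small subunit together with Nob1, read 6.93, 6.87 and 7.41 in controls and 8.10, 8.18 and 8.34 in deleted samples. The groups are far apart and control c is the highest control, as for Pes1. It rose 2.20-fold (log2 fold change 1.13 ± 0.15, SE; adjusted p = 0.0111, limma), and the adjusted p was 0.0541 without control b and 0.106 when every deposited row was tested.

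Nol7, a nucleolar protein of the same pathway, read 8.26, 8.34 and 8.63 in controls and 9.06, 9.06 and 9.22 in deleted samples, again without overlap and with control c on top. It rose by 0.70 ± 0.12 (SE; adjusted p = 0.0293, limma). Its adjusted p was 0.0886 without control a, 0.109 without control b, and 0.0699, 0.0879 and 0.0864 without deleted a, b and c. It was 0.137 with every deposited row. The RefSeq window of Pno1 holds an E-box 38 bases after the start site. How many of the further genes hold one is not given here, and a link to the rise was not tested.

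Of 40 further large subunit factors, none passed, with a median of 0.17, and 11 were higher and 1 lower at an unadjusted p under 0.05. Rpf2, which brings the 5S particle to the large subunit, came closest at 7.23, 7.25 and 7.37 against 7.75, 7.67 and 7.84. These groups were tight and apart (0.47 ± 0.10, SE; adjusted p = 0.0613, limma). The 13 measured subunits and cofactors of the RNA exosome, which trims precursor RNA, had a median of 0.22 without a call, and Exosc9 (0.64 ± 0.16, SE; adjusted p = 0.0870) had the smallest p.

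Over these 116 further genes of ribosome production (122 listed), 88 log2 fold changes were positive (75.9%) and the median was 0.17. The median was 0.20 after quantile normalization, 0.21 after median centring and 0.16 after cyclic loess. At an unadjusted p under 0.05, 33 were higher (28.4%) and 2 lower, beside 9.1% and 6.77% of all genes. Of 19 proliferation genes measured, none passed, the median was -0.01, and the smallest p was that of the mitotic kinase Plk1 (0.46 ± 0.16, SE; adjusted p = 0.196, limma). Of 10 genes of the Myc family and its partners, none passed, with a median of 0.13, and Mxd4, a Max partner that opposes Myc, had the smallest p (0.43 ± 0.11, SE; adjusted p = 0.0938).

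**Figure D5:**
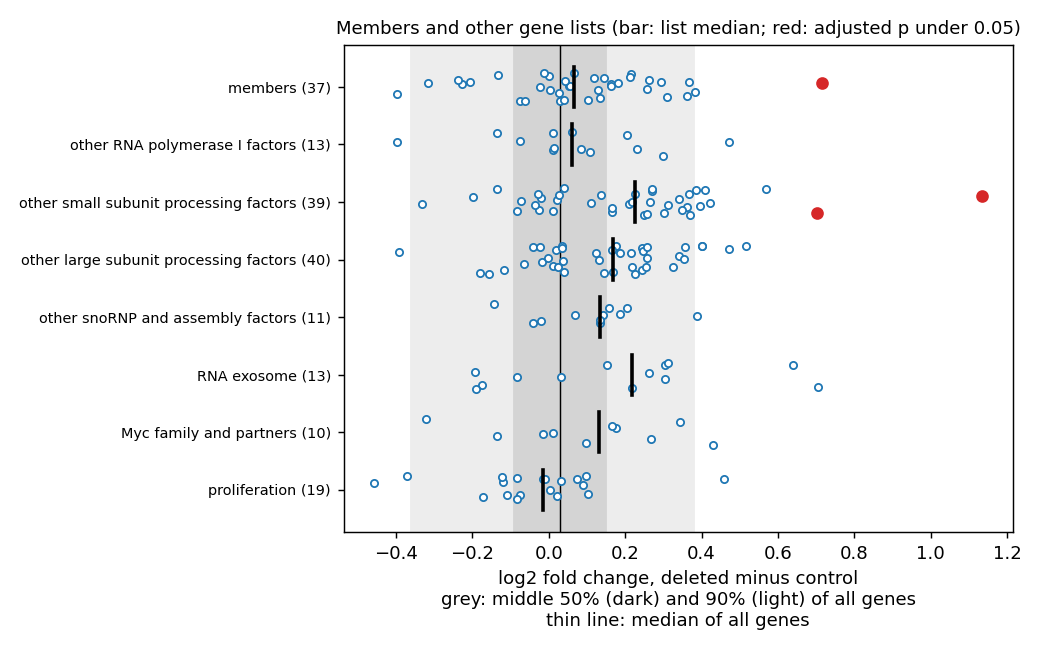
Log2 fold changes of the 37 genes and of the other gene lists (points; red where the adjusted p is under 0.05), with each list's median (bars) over the central range of all genes (grey; the middle 50 percent runs from -0.09 to 0.15). Pes1, Pno1 and Nol7 are the 3 red points, and the medians run from -0.01 for proliferation to 0.23 for small subunit factors.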

How the data were processed

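Values are on the log2 scale as the authors deposited them, 1 per probe set. The submitters' processing notes name RMA and Affymetrix Expression Console 1.1.2; the settings are not stated there. RNA was amplified from 20 ng, per the labels' protocols. The 35556 rows were used as deposited, and 21789 that name 1 gene in the platform's annotation gave 19938 genes. RefSeq (GRCm38.p6) supplied promoter windows.

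The test was limma's (version 3.58.1, R 4.3.3; lmFit, then eBayes; no block, two-sided, Benjamini-Hochberg over all genes, threshold 0.05), and the script was tested on simulated data. Summaries used Python 3.11.15. The number of arrays limits precision. Alternatives were other priors, intensity filters, 3 normalizations over all rows, other handling of rows, array weights, the title letters as a block, and leaving out each array.

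Members and lists were chosen with earlier results of these data known, and the checks of surface and Y-linked genes were added later. Full values were given for called members and the 6 with the smallest p in each direction, and others were chosen by role. Of each pathway list, up to 3 called genes per direction were named, or else the gene with the smallest p. Of marker lists, counts and summed levels were given.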

Additional observations from a re-analysis of the deposited data

How the results depend on the processing

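The count of members called lower stayed at 0 under all 11 alternatives that keep every array and all 6 that leave one out, with limma. The member median stayed between 0.05 and 0.11 in both kinds of alternative, and the SD between arrays of that median was 0.08. The count called higher, 1 as reported, was 0 after cyclic loess, 0 with every deposited row, 0 with array weights and 0 with the replicate block, and between 0 and 1 when single arrays were left out. Same-letter deviations from the genotype means correlated at -0.01, -0.04 and 0.06, so no array effect shared by a title letter was seen. Whether mice of the same letter were handled together cannot be told from these correlations. With the replicate block the adjusted p of Pes1 was 0.0666, and 274 genes were called in place of 286. The count of all genes called was 438 when only the brighter genes were tested and 13 with every deposited row, and 126, 53, 145, 84 and 143 without control a, control b, deleted a, deleted b and deleted c. Called genes of the further lists, 2 as reported, numbered 5 among the brighter genes, 4 after median centring, 0 with every deposited row, and 0 to 4 when single arrays were left out. The Cebpa log2 fold change of -1.71 had an adjusted p of 0.0513 with every deposited row. Members that changed sign under another normalization had log2 fold changes of at most 0.06 in size. No detection calls were used here.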
